A study of Mus musculus with 6 samples.

Results

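Tlr12 and Tlr11, which encode the receptors for the profilin of Toxoplasma gondii, and Tlr3, which encodes the receptor for double-stranded RNA, were lower in splenic dendritic cells labelled TBK1-DKO than in those labelled wild type (WT). Tlr12 fell by 41.2%, Tlr11 fell by 23.4% and Tlr3 fell by 18.5%. Tlr7 and Tlr13 differed by less than the spread between libraries. Tlr8 was 20.1% lower but narrowly missed the threshold (edgeR adjusted p = 0.052, beside 0.0377 for Tlr3). The differences of Tlr9 and Unc93b1 did not pass the test. These 8 genes, the Toll-like receptors that signal from endosomes and the chaperone that carries them there, were taken by symbol from the 23420 genes of the count files. All 8 were present and all 8 were tested. RNA had been sequenced from 3 libraries of TBK1-DKO mice and 3 of WT mice, each from freshly isolated dendritic cells of the spleen. Strain C57BL/6 is given for both groups, no treatment is named, and the age is 10 weeks in the sample labels and 8 weeks in the protocol. The labels do not spell out DKO, nor the alleles, any Cre driver, how the cells were isolated, or if the replicates are different animals. The p-values therefore measure the spread between these libraries, which may be technical.

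Endosomal Toll-like receptors bind nucleic acids or microbial proteins that a cell has taken up, and report them to the cytosol from the endosome membrane. Unc93b1, a membrane-spanning chaperone of the endoplasmic reticulum, carries them to that compartment, where proteases trim their ectodomains. Tlr3 signals through the adaptor Ticam1 (TRIF), and the other receptors of the group through Myd88. Among mouse spleen cells, Tlr3, Tlr11 and Tlr12 are known from type 1 conventional dendritic cells, Tlr12 also from plasmacytoid dendritic cells, Tlr7 and Tlr9 from plasmacytoid dendritic cells and B cells, and Tlr8 and Tlr13 from macrophages, monocytes and other myeloid cells. TBK1 is a kinase that relays signals of Ticam1 and of cytosolic nucleic acid sensors to interferon regulatory factors.

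The promoters of Tlr12 and Tlr11, the genes with the largest falls, and of Tlr9, the receptor gene with the largest difference in the other direction, are shown because the members did not move together. Each window runs from 250 bases before to 50 bases after the annotated RefSeq start on GRCm38.p6, written 5′ to 3′ on the gene's strand, at chr4:128618570-128618869 (minus strand) for Tlr12, chr14:50357664-50357963 (plus strand) for Tlr11 and chr9:106222348-106222647 (plus strand) for Tlr9. Capitals mark matches to 4 motifs picked after these letters had been read.
Tlr12: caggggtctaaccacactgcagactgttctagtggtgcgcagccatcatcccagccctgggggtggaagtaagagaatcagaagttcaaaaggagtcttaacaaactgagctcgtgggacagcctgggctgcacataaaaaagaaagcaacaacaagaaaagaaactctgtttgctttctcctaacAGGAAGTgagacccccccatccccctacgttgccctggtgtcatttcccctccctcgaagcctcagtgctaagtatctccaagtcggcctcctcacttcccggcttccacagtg
Tlr11: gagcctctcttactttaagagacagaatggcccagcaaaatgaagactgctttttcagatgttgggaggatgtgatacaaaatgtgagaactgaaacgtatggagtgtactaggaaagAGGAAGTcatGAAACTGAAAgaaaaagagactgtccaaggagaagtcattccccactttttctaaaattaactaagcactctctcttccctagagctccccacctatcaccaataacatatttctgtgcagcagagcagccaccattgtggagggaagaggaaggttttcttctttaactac
Tlr9: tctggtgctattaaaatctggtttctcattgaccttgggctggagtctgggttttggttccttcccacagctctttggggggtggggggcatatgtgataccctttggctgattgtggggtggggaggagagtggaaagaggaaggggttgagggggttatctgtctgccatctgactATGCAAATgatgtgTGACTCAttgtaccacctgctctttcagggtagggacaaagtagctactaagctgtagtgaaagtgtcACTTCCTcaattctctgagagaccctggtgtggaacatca
The motifs searched on both strands were the core of many ETS-family and PU.1 sites (AGGAAGT), the octamer ATGCAAAT, the interferon-stimulated response element core and the AP-1 site (TGANTCA). The ETS core lay 64 to 58 bases before the start in Tlr12 and 132 to 126 bases before it in Tlr11. In Tlr9 it lay on the opposite strand, at bases 11 to 17 after the start. Of all 32851 promoter windows of this length, 9.35% held it. Tlr11 also held the interferon-stimulated response element core (in 3.44% of windows) 122 to 113 bases before the start. Tlr9 also held the octamer (in 1.74%) and the AP-1 site (in 7.81%), at 72 to 65 and 58 to 52 bases before the start. No matches overlapped each other. The windows of Tlr3, Tlr8 and Tlr13 held none of the 4 motifs, and Tlr7 and Unc93b1 were not matched. The RefSeq start of Tlr3 lies 700 bases from the GENCODE start, which its window does not cover, and that of Tlr13 lies 71 bases away. The ETS core stood in the windows of Tlr12 and Tlr11, which fell, and of Tlr9, which did not, but not in that of Tlr3, which fell. A link of these motifs to the differences was not tested.

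Reads in genes numbered 45018389 to 47349648 per TBK1-DKO library and 31077585 to 36145508 per WT library. The members had 835 to 33197 reads in each library, so counting error alone was between 0.549% and 3.46% of their values. Libraries TBK1-DKO 2 and WT 1 stood apart within their groups. Chi-square per degree of freedom over genes was 38.1 and 38.2 for TBK1-DKO 2 against its partners and 2.47 between those partners, and 13.2 and 14.8 for WT 1 against its partners and 2.65 between them. Tbk1 itself was at 79.2 to 83.9 CPM in TBK1-DKO (counts scaled to 1000000 reads in genes) and 80.8 to 90.7 CPM in WT. It was not called (log2 fold change -0.05, edgeR adjusted p = 0.629). Gene-level counts can miss a partial deletion and the labels name no alleles, so this level did not check the genotype labels. Of 14388 genes tested, 23.6% were called, 13.7% higher and 9.9% lower, at an adjusted p under 0.05 (edgeR, quasi-likelihood F test, adjusted by Benjamini and Hochberg over all genes tested, as for every adjusted p of edgeR here). Taking trends with transcript length and GC content out of each library turned 1978 higher and 1424 lower calls into 2374 and 2658. Of 9 markers of dendritic cell identity, Zbtb46 rose (log2 fold change 0.35), Kmo (-0.32) and Itgax (-0.20) fell, and 6 were not called, among them Cd74 at 6374 ± 585 CPM in TBK1-DKO and 6618 ± 502 CPM in WT (SD, n = 3 each). The Itgax call was lost without TBK1-DKO 1, TBK1-DKO 3, WT 1 or WT 2 and the Zbtb46 call without TBK1-DKO 1 or WT 3. Markers of other cell types were present too and are given beside the results they touch. In such bulk RNA, fewer cells of a type and less RNA per cell cannot be told apart.

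Tlr12 showed the largest difference of the 8 genes. Its level was 18.7, 18.7 and 18.5 CPM in TBK1-DKO 1, 2 and 3, against 29.6, 32.2 and 33.3 CPM in WT 1, 2 and 3. The TBK1-DKO libraries, with an SD of 0.101 CPM, all lay below every WT library. That SD is smaller than counting error alone, which was 3.46% of the value at the 835 reads of TBK1-DKO 3. It therefore understates the spread. The log2 fold change of TBK1-DKO over WT was -0.77 (SE 0.07, 95% interval -0.92 to -0.62, edgeR adjusted p = 3.32e-05). Tlr12 is a single-exon gene of chromosome 4 (128615443 to 128618619, minus strand, 3177 exonic bases in the GENCODE M21 annotation of GRCm38, the assembly of mm10). It stayed called whichever library was left out (log2 fold change -0.81 to -0.74), and without TBK1-DKO 2 and WT 1 it was -0.83.

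Tlr11, whose protein pairs with that of Tlr12 in profilin sensing, had 35.99, 33.1 and 34.2 CPM in TBK1-DKO and 47.6, 44.9 and 42.5 CPM in WT. The groups did not overlap, and the drop was smaller than that of Tlr12, at -0.38 on the log2 scale (SE 0.07, 95% interval -0.53 to -0.24, edgeR adjusted p = 0.00198). The gene has 2 exons on chromosome 14 (50357914 to 50363663, plus strand). Each leave-one-out fit kept the call, with log2 fold changes between -0.44 and -0.34. Tlr12 amounted to 52.0%, 56.5% and 54.2% of the Tlr11 CPM in TBK1-DKO libraries and to 62.3%, 71.8% and 78.4% in WT libraries. The partners' ratio was thus lower in every TBK1-DKO library, at p = 0.1 in an exact two-sided permutation test, the smallest that 3 against 3 libraries allow (0.36 adjusted over the 9 ratios of members compared).

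Tlr3 had 27.1, 22.1 and 26.2 CPM in TBK1-DKO and 33.3, 30.0 and 29.2 CPM in WT. TBK1-DKO 2 was the lowest library and WT 1 the highest, and the groups did not overlap. The log2 fold change was -0.29 (SE 0.09, 95% interval -0.49 to -0.10, edgeR adjusted p = 0.0377). The call was lost without TBK1-DKO 3, WT 1 or WT 2 (edgeR adjusted p = 0.0619, 0.114 and 0.0678). Without both TBK1-DKO 2 and WT 1 the difference shrank to -0.16. It was called there, but so were 47.7% of all genes, since the libraries kept were those closest within each group. Tlr3 has 7 exons on chromosome 8 (45395665 to 45411080, minus strand), and 7.32% of its exonic length overlaps the antisense transcript Gm45542, whose reads cannot be told apart from those of Tlr3 without a known strand setting.

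**Figure D1:**
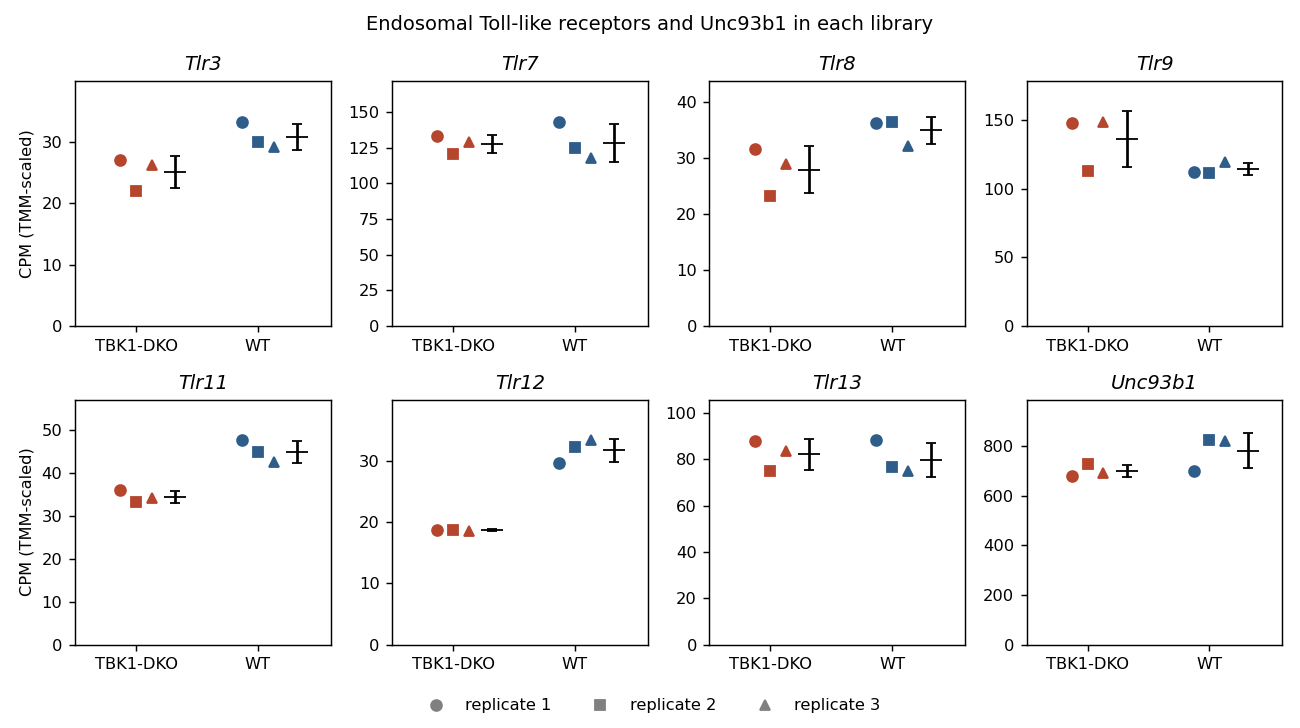
Scaled counts (CPM) of the 8 genes in each library, TBK1-DKO left and WT right, with symbols for the replicate number and a bar for the mean ± SD (n = 3 per group). Tlr12 and Tlr11 separate the groups clearly, Tlr3 and Tlr8 separate them narrowly with TBK1-DKO 2 lowest, and Tlr7, Tlr9, Tlr13 and Unc93b1 overlap.

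The receptors for single-stranded RNA, Tlr7 and Tlr8, did not pass the test. Tlr7 had 133, 121 and 129 CPM in TBK1-DKO and 143, 125 and 117 CPM in WT. The groups overlapped, and the log2 fold change was -0.01 (SE 0.08, 95% interval -0.18 to 0.16, edgeR adjusted p = 0.951). Tlr8, its neighbour on the X chromosome, had 31.6, 23.3 and 28.9 CPM in TBK1-DKO and 36.3, 36.5 and 32.1 CPM in WT. Every TBK1-DKO library was below every WT library, yet Tlr8 missed the threshold, at -0.32 on the log2 scale (SE 0.11, 95% interval -0.56 to -0.09, edgeR adjusted p = 0.052). TBK1-DKO 2 was again the lowest. Tlr8 passed by DESeq2 (adjusted p = 0.0221) but not by limma-voom (adjusted p = 0.0509). Leaving out 1 library gave edgeR adjusted p-values from 0.0227 to 0.148, and without TBK1-DKO 2 and WT 1 the log2 fold change was -0.19. The Tlr8 gene has 3 exons between 167242696 and 167264329 and Tlr7 has 5 between 167304929 and 167330558, both on the minus strand and 40.6 kb apart.

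Tlr9, the receptor for unmethylated CpG DNA, was the only member whose 95% interval lay wholly above 0. It had 148, 113 and 149 CPM in TBK1-DKO, against 112, 112 and 120 CPM in WT. TBK1-DKO 1 and 3 were above every WT library, while TBK1-DKO 2 lay among them. With all 6 libraries the log2 fold change was 0.25 (SE 0.10, 95% interval 0.04 to 0.47) and was not called (edgeR adjusted p = 0.0919, unadjusted p = 0.0272). Without TBK1-DKO 2 it was 0.35 and called (edgeR adjusted p = 2.62e-04). With length and GC offsets it was 0.16 (edgeR adjusted p = 0.3545). Tlr9 has 2 exons on chromosome 9 (106222598 to 106226883, plus strand).

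Tlr13, which encodes the receptor for bacterial large-subunit ribosomal RNA, had 88.1, 74.9 and 83.6 CPM in TBK1-DKO and 88.2, 76.5 and 74.9 CPM in WT. The ranges nearly coincided, and the log2 fold change was 0.04 (SE 0.08, 95% interval -0.14 to 0.22, edgeR adjusted p = 0.758). The gene lies on the X chromosome (106143204 to 106160493, plus strand, 3 exons), far from Tlr7 and Tlr8.

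Unc93b1 was by far the most abundant of the 8 transcripts. It had 679, 729 and 694 CPM in TBK1-DKO and 701, 824 and 823 CPM in WT. WT 1 lay inside the TBK1-DKO range and the other WT libraries above it. The log2 fold change was -0.16 (SE 0.08, 95% interval -0.33 to 0.01, edgeR adjusted p = 0.164). Leaving out WT 1 (log2 fold change -0.23) or TBK1-DKO 2 (-0.21) brought it past the threshold (edgeR adjusted p = 0.0292 and 0.0407). Unc93b1 has 11 exons on chromosome 19 (3935186 to 3949340, plus strand).

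In all, 3 of the 8 members were called lower, beside 9.9% of all genes, and 0 were called higher, beside 13.7%. DESeq2 and limma-voom, at an adjusted p under 0.05, each called 0 higher, beside 12.2% and 13.6% of all genes. At an unadjusted p under 0.05, edgeR gave 1 higher, Tlr9, and 4 lower. The share of all genes at that unadjusted threshold was not computed, so these counts cannot be set against it. The median log2 fold change was -0.23 over the 8 members and 0.00148 over all genes tested. In 4 members the groups did not overlap, all with lower TBK1-DKO values, where 41.1% of all genes showed no overlap and 19.5% none with lower TBK1-DKO values. Without TBK1-DKO 2 and WT 1 all 8 members were called, 3 higher (Tlr7, Tlr9 and Tlr13) and 5 lower, beside 47.7% of all genes (24.2% higher and 23.5% lower). That comparison keeps the libraries that were closest within each group.

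**Figure D2:**
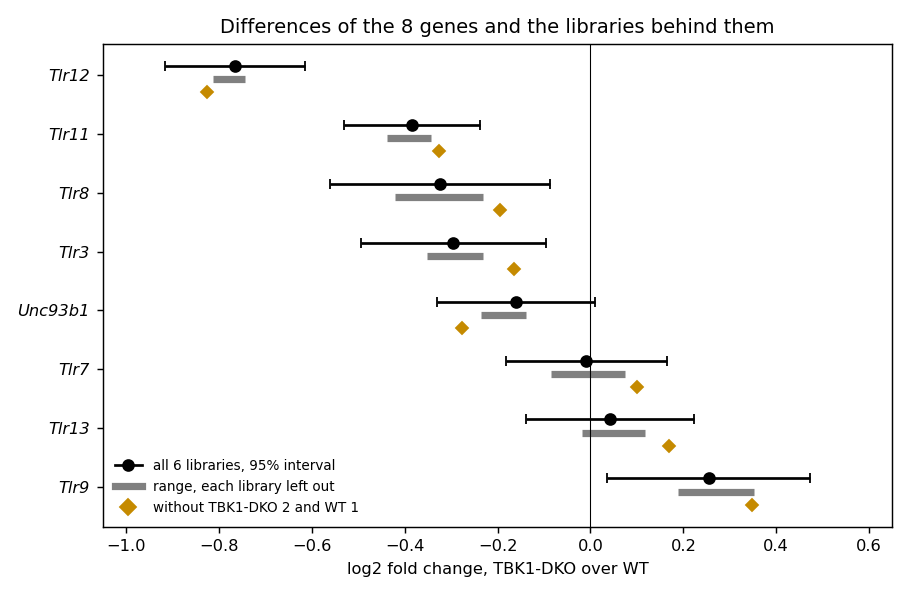
Log2 fold changes of TBK1-DKO over WT for the 8 genes, with 95% intervals from all 6 libraries (black), the range when each library was left out in turn (grey) and the value without TBK1-DKO 2 and WT 1 (diamonds). Tlr12 at -0.77 and Tlr11 at -0.38 stay left of 0 throughout, while Tlr7 and Tlr13 change sign with the libraries used.

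Per kilobase of exon, Tlr9 and Tlr7 were the most abundant receptor transcripts and Tlr3 the least. In TBK1-DKO, Tlr9 averaged 39.3 ± 5.87 CPM per kb, Tlr7 31.2 ± 1.52, Tlr13 19.1 ± 1.56, Tlr11 10.5 ± 0.44, Tlr8 7.78 ± 1.18, Tlr12 5.88 ± 0.032 and Tlr3 4.82 ± 0.511 (SD, n = 3). In WT, Tlr9 averaged 32.9 ± 1.29 CPM per kb, Tlr7 31.4 ± 3.23, Tlr13 18.5 ± 1.69, Tlr11 13.7 ± 0.783, Tlr12 9.99 ± 0.592, Tlr8 9.74 ± 0.683 and Tlr3 5.92 ± 0.419. Unc93b1 stood above them all at 231 ± 8.44 CPM per kb in TBK1-DKO and 258 ± 23.4 in WT. The ranges of Tlr9 and Tlr7 overlapped in both groups. Within libraries, Tlr9 was above Tlr7 in every TBK1-DKO library and in WT 2 and WT 3, but below it in WT 1. Tlr12 (5.84 to 5.89 CPM per kb) was below Tlr8 (6.49 to 8.80) in every TBK1-DKO library, whereas their ranges overlapped in WT.

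The summed receptor level per kb was 119 ± 10.9 in TBK1-DKO and 122 ± 5.09 in WT, so the groups differed in make-up more than in total. Tlr9 held 33.7%, 30.6% and 34.7% of the summed level in TBK1-DKO libraries and 25.2%, 26.7% and 29.0% in WT libraries. Here TBK1-DKO 2 no longer fell among the WT libraries. Tlr12 held 4.66%, 5.55% and 4.74% in TBK1-DKO and 7.28%, 8.44% and 8.84% in WT. The shares of Tlr11 (8.90 ± 0.551% and 11.2 ± 0.25%), Tlr8 (6.54 ± 0.426% and 7.96 ± 0.454%) and Tlr3 (4.06 ± 0.0616% and 4.84 ± 0.139%) were also lower in TBK1-DKO than in WT, without overlap. Those of Tlr7 (26.4 ± 1.24% and 25.7 ± 1.56%) overlapped, and so did those of Tlr13 (16.1 ± 0.313% and 15.2 ± 0.736%). Shares of a whole move against each other, and no test was made on them.

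**Figure D3:**
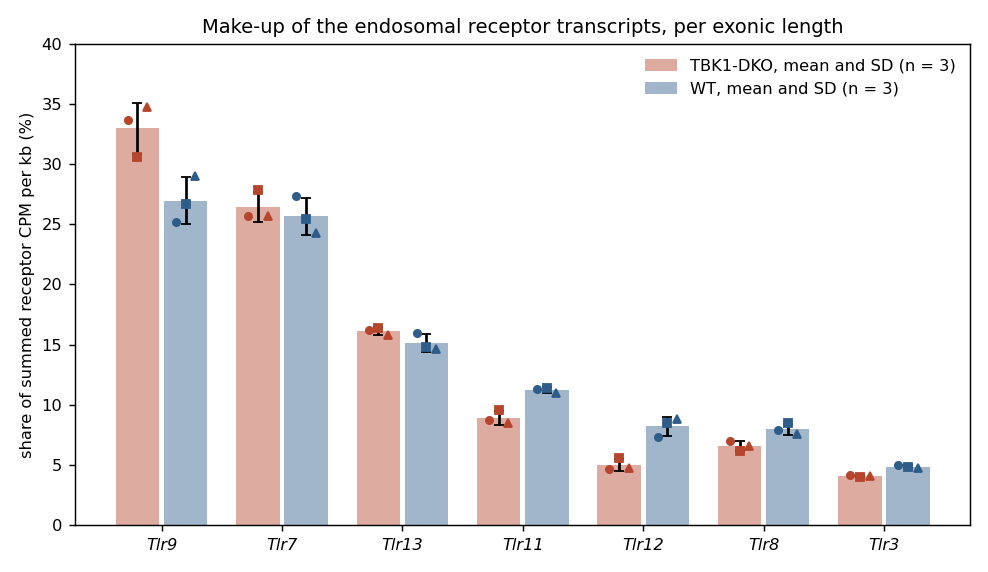
Share of each receptor in the summed CPM per kb of exon of the 7 endosomal Toll-like receptor genes, in percent, with TBK1-DKO left of WT for each gene, bars for means, error bars for SD (n = 3) and a symbol per library (circle, square and triangle for replicates 1, 2 and 3). Tlr9 takes a larger share in every TBK1-DKO library (30.6% to 34.7%) than in any WT library (25.2% to 29.0%), and Tlr12 a smaller one.

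Each receptor was also set against the chaperone within a library. Tlr12 amounted to 2.76%, 2.57% and 2.67% of the Unc93b1 CPM in TBK1-DKO libraries and 4.23%, 3.91% and 4.04% in WT libraries, without overlap. Tlr9 amounted to 21.8%, 15.5% and 21.5% in TBK1-DKO and 16.0%, 13.6% and 14.5% in WT, where TBK1-DKO 2 lay within the WT range. The ratios of the other 5 receptors to Unc93b1 overlapped between the groups, and so did Tlr7 over Tlr9, at 0.897, 1.07 and 0.868 in TBK1-DKO and 1.27, 1.12 and 0.98 in WT. None of the 9 ratios of members reached an adjusted p under 0.36 (exact two-sided permutation test), and the design allows no raw p below 0.1.

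Markers of the cells known to carry these receptors differed between the groups as well. Over all genes, 9.9% were called lower and 13.7% higher, the shares to set beside each count of markers below. Of 11 markers of type 1 conventional dendritic cells, 8 fell and 1 rose. The falls included Cadm1, an adhesion molecule, at 65.3 ± 3.18 CPM in TBK1-DKO and 121 ± 3.32 CPM in WT, Clec9a, a receptor for dead cells (log2 fold change -0.74), and Itgae, an integrin chain (-0.82). Cd24a, a surface glycoprotein that erythroid cells and B cells also make, rose by 0.33, and Batf3 and Wdfy4 were not called. Irf8, which fell (-0.32), is likewise not confined to these cells, as plasmacytoid dendritic cells also make it. The list median was -0.32, beside -0.77 for Tlr12, -0.38 for Tlr11 and -0.29 for Tlr3. Of 13 markers of plasmacytoid dendritic cells, 10 fell and 1 rose, with a median of -0.31. Markers of type 2 conventional dendritic cells moved in both directions, 3 up and 2 down of 10, with Esam at 0.75 and Clec10a at -0.79. Of the plasmacytoid markers, Cox6a2, a cytochrome c oxidase subunit gene, had 7.85 ± 0.605 CPM in TBK1-DKO and 23.6 ± 0.871 CPM in WT, and Siglech, a lectin of these cells, 135 ± 0.251 and 221 ± 15.5 CPM. Summed plasmacytoid marker levels ranged from 1365 to 1395 CPM in TBK1-DKO and from 1723 to 1744 CPM in WT. B cell markers fell in 6 of 12 cases (median -0.27), among them Fcer2a (-0.66) and Bank1 (-0.46), and macrophage markers in 11 of 13 (median -0.53), among them Cd163 (-1.08) and Vcam1 (-0.62). Monocyte markers moved in both directions, 3 up and 4 down of 10, and all 11 neutrophil markers tested rose (median 1.30), their summed level reaching 6112 to 7054 CPM in TBK1-DKO and 2523 to 2794 CPM in WT. Also higher were all 8 erythroid genes tested (Hbb-b1 had no reads), 6 of 7 plasma cell genes and 13 of 14 proliferation genes, and lower were 9 of 11 T and NK cell genes. Of 15 genes of dissociation and early stress, 10 fell and 1 rose, their summed level being 2569 to 2689 CPM in TBK1-DKO and 3340 to 3707 CPM in WT. The part of these shifts in the members' differences was not tested.

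**Figure D4:**
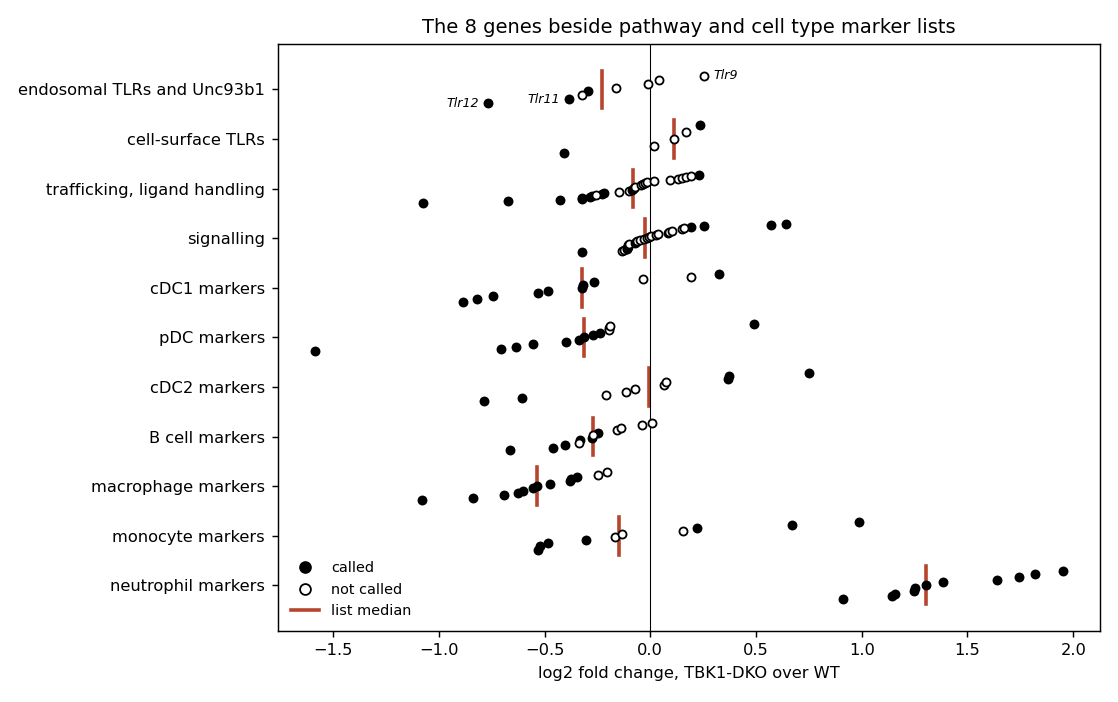
Log2 fold changes of TBK1-DKO over WT for single genes of each list (filled where called at an adjusted p under 0.05, open where not), with the list median in red (cDC1 and cDC2, type 1 and type 2 conventional dendritic cells; pDC, plasmacytoid dendritic cells; TLR, Toll-like receptor). Tlr12 and Tlr11 lie among the falls of type 1 conventional and plasmacytoid dendritic cell markers, and Tlr9 at 0.25 lies to the right of all but 1 marker of plasmacytoid dendritic cells and of all B cell markers.

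Members were also expressed per summed level of these markers in each library. Tlr12 equalled 0.539%, 0.568% and 0.536% of the summed type 1 conventional dendritic cell markers in TBK1-DKO and 0.821%, 0.883% and 0.891% in WT. It equalled 1.37%, 1.34% and 1.36% of the plasmacytoid markers in TBK1-DKO and 1.70%, 1.86% and 1.93% in WT. On both scales Tlr12 was lower in every TBK1-DKO library. The markers with the highest means in the type 1 sum, Wdfy4 and Cd24a, were not called lower. Wdfy4 had 1112 ± 152 CPM in TBK1-DKO and 1137 ± 46.9 CPM in WT, and Cd24a 945 ± 29.8 and 754 ± 18.6 CPM. Of single type 1 markers, Cadm1 (-0.89) and Itgae (-0.82) fell by more than Tlr12 (-0.77), and the others fell by less or did not fall. Tlr11 per type 1 markers was also lower without overlap, by 0.28 on the log2 scale, and Tlr3 by 0.19. The Tlr11 and Tlr3 differences depended on the summary, since against the geometric mean of the same markers they were -0.04 and 0.05, while that of Tlr12 was -0.42. Tlr9 equalled 10.8%, 8.10% and 10.9% of the plasmacytoid markers in TBK1-DKO and 6.43%, 6.45% and 6.95% in WT, and 3.65%, 2.73% and 3.59% of the B cell markers in TBK1-DKO and 2.34%, 2.28% and 2.46% in WT. The Tlr9 ratios were higher in every TBK1-DKO library, TBK1-DKO 2 included. The marker sums under these ratios, and that of macrophage markers, were themselves lower in TBK1-DKO. Plasmacytoid markers summed to 1375 ± 17.3 CPM in TBK1-DKO and 1734 ± 10.5 CPM in WT. B cell markers summed to 4115 ± 50.7 CPM in TBK1-DKO and 4850 ± 61.4 CPM in WT. A gene with equal CPM in both groups would thus also give a higher ratio. Tlr7 per plasmacytoid markers (log2 difference 0.33) and Tlr13 per macrophage markers (0.58) were likewise higher without overlap, whereas Tlr7 per B cell markers, Tlr13 per monocyte markers and Tlr8 per macrophage or monocyte markers overlapped. In the exact two-sided permutation test, 8 of these 12 ratios reached the smallest possible p of 0.1, which is 0.15 after adjustment over the 12.

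Genes that fold, carry and trim the receptors or handle their ligands were also tested. Of 27 tested, 9 fell, 1 rose and 17 were not called, beside 9.9% lower and 13.7% higher over all genes, with a median log2 fold change of -0.08. With length and GC offsets 14 were lower and 5 higher, beside 18.5% and 16.5% of all genes. Without TBK1-DKO 2 and WT 1 the counts were the same, beside 23.5% and 24.2% of all genes. In contrast, 5 were called without WT 2 and 6 without WT 3, beside 15.7% and 16.9% of all genes. The lysosomal proteases that cut receptor ectodomains made up most of the falls. Ctsl, the cathepsin L gene, had 65.5, 72.2 and 62.1 CPM in TBK1-DKO and 108, 104.5 and 106.5 CPM in WT, far apart, and -0.68 on the log2 scale (SE 0.06, edgeR adjusted p = 5.4e-05). Ctsb (-0.32), Ctss (-0.22) and Lgmn (-0.23), which encode cathepsins B and S and asparagine endopeptidase, fell less. The Ctsb call was lost without WT 2 or WT 3, the Lgmn call without any library but TBK1-DKO 2 or WT 1, and the Ctss call without any but TBK1-DKO 2. Ctsk, at 0.676 ± 0.127 CPM in TBK1-DKO and 1.42 ± 0.281 CPM in WT, also fell and was scarce in both groups. Genes of enzymes that degrade nucleic acids fell as well, Dnase1l3, a secreted DNase, at 371 ± 12.7 CPM in TBK1-DKO and 452 ± 7.13 CPM in WT, and Pld3, an endolysosomal exonuclease (-0.32, lost without TBK1-DKO 1, TBK1-DKO 3, WT 2 or WT 3). Its relative Pld4 was not called (-0.10). Ifi30, a lysosomal thiol reductase (-0.43), and Sdcbp, the syntenin adaptor (-0.27), fell, and Lrrc59, a protein of the endoplasmic reticulum, rose by 0.23, a call lost without WT 2. The folding partners Hsp90b1 (gp96), with a log2 fold change of 0.15, and Cnpy3 (-0.02) were not called, nor was the endolysosomal transporter Slc15a4 (-0.07). Rnaset2a had no reads in any library, but it has a near-identical copy, and ambiguous reads are not counted. Macrophages, whose markers fell, also make many of these proteases, and their part was not tested.

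Of 28 genes downstream of the receptors, 4 rose, 1 fell and 23 were not called, with a median of -0.02, shares near or below those over all genes (13.7% higher and 9.9% lower). Without TBK1-DKO 2 and WT 1, 8 were higher and 6 lower, beside 24.2% and 23.5% of all genes. With length and GC offsets the counts were 5 and 5, beside 16.5% and 18.5% of all genes. Leaving out 1 library gave 2 calls (without WT 2) to 6 (without TBK1-DKO 2), and 3 without TBK1-DKO 1, TBK1-DKO 3 or WT 3. Irf7, the interferon regulatory factor that acts downstream of Tlr7 and Tlr9, had 169, 193 and 169 CPM in TBK1-DKO and 113, 121 and 123 CPM in WT, without overlap, and rose by 0.57 on the log2 scale (SE 0.07, edgeR adjusted p = 2.32e-04). Irf8, a transcription factor of type 1 conventional and plasmacytoid dendritic cells, had 583, 605 and 584 CPM in TBK1-DKO and 689, 751 and 773 CPM in WT and fell by 0.32 (SE 0.06, edgeR adjusted p = 0.0051). Spp1, osteopontin, at 2.24 ± 0.253 CPM in TBK1-DKO and 1.44 ± 0.136 CPM in WT, rose by 0.64, a call lost without TBK1-DKO 1 or WT 2 (edgeR adjusted p = 0.058 and 0.0699). Tab1, a subunit of the TAK1 kinase complex (0.25), and Ticam1, the adaptor of Tlr3 (0.19), rose, but the Tab1 call was lost without any 1 of 5 libraries and the Ticam1 call without any 1 of 4 (edgeR adjusted p = 0.0781 to 0.183). Ticam1 was also not called with length and GC offsets (log2 fold change 0.10), upper-quartile factors, no filter or thinned counts, or by DESeq2 (adjusted p = 0.054). Myd88, the adaptor of the other receptors, was not called, at 103 ± 4.64 CPM in TBK1-DKO and 92.9 ± 5.66 CPM in WT.

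The 5 cell-surface Toll-like receptor genes gave 1 rise, 1 fall and 3 without a call, beside 13.7% higher and 9.9% lower over all genes. Without TBK1-DKO 2 and WT 1, 4 were higher and 1, Tlr4, was lower, at -0.21, beside 24.2% and 23.5% of all genes. Tlr2, which recognises lipoproteins, had 52.8, 53.5 and 47.8 CPM in TBK1-DKO and 43.2, 45.1 and 42.5 CPM in WT (log2 fold change 0.24, edgeR adjusted p = 0.0224). Tlr4, the lipopolysaccharide receptor gene, had 40.2, 30.8 and 36.7 CPM in TBK1-DKO and 54.9, 43.6 and 44.5 CPM in WT (log2 fold change -0.41, edgeR adjusted p = 0.0246). The Tlr2 call was lost when any library but TBK1-DKO 2 or 3 was left out (edgeR adjusted p = 0.0522 to 0.118), and the Tlr4 call without TBK1-DKO 3 or WT 1 (edgeR adjusted p = 0.0561 and 0.0829). The lowest value of Tlr4 was in TBK1-DKO 2, as were those of Tlr3, Tlr5, Tlr8 and Tlr11. Tlr1 (0.02), Tlr5 (0.11) and Tlr6 (0.17) were not called, and their summed level with Tlr2 and Tlr4 was 242 ± 10.6 CPM in TBK1-DKO and 242 ± 14.1 CPM in WT.

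Over the 6 libraries, the gene most like Tlr12 among 10712 with a mean of at least 5 CPM was Fxyd2, a regulatory subunit of the sodium pump (Pearson's r of log2 levels 0.9997, log2 fold change -1.78), followed by Csf1r, the receptor for macrophage colony-stimulating factor (r = 0.9989, -0.53). Tlr11 was most like Spcs3, a signal peptidase subunit gene (r = 0.9984), and Tlr9 most like Man1a, a Golgi mannosidase gene (r = 0.9987, log2 fold change 0.24, not called). Tlr3 was most like Ptprc, the leukocyte surface phosphatase CD45 (r = 0.9970). Unc93b1 resembled Spryd7 (r = 0.9970) and Cd79a, a chain of the B cell receptor complex (r = 0.9967). With 6 libraries in 2 groups and so many genes, correlations of this size describe shared ups and downs of the same libraries only. Of the 14 nearest tested genes on either side of the members, leaving out members themselves, 4 were called lower and 2 higher, beside 9.9% and 13.7% of all genes. Each of the 3 members called lower had 1 such neighbour lower, Zscan20 (-0.32) at 5.34 kb from Tlr12, Ttc5 (-0.20) at 401.8 kb from Tlr11 and Fam149a (-0.48) at 13.4 kb from Tlr3. Their neighbours on the other side, Phc2 (-0.02), Naa30 (-0.09) and Sorbs2 (0.10), were not called. The Zscan20 call was lost without TBK1-DKO 1, WT 2 or WT 3, and the Ttc5 call without TBK1-DKO 1, TBK1-DKO 3 or WT 2. Prps2 (-0.29), 15.8 kb from Tlr7, was also lower. Alas1, the gene of the first enzyme of haem synthesis, 6.57 kb from Tlr9, rose by 0.37, and so did 1700055N04Rik, 9.3 kb from Unc93b1, at 0.853 ± 0.182 CPM in TBK1-DKO and 0.294 ± 0.058 CPM in WT.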

How the data were processed

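RNA of splenic dendritic cells was sequenced in 3 TBK1-DKO and 3 WT libraries. The authors deposited whole-number read counts per gene symbol, 1 file per library, without scaling. The tools named per the submitters' processing notes are HTSeq, TopHat, TopHat2 and DESeq2, with the build mm10. Tool versions, the strand setting and the gene models are not given in the sources used. HTSeq leaves reads that fit several places or genes out of gene counts. Rows that name no gene (8.20% to 10.7% of records) were left out of library sizes and tests.

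The counts went into edgeR 4.0.16 (R 4.3.3). After filterByExpr, set to a minimum count of 10, 14388 of 23420 genes remained. They were scaled by TMM factors and compared by the robust quasi-likelihood F test without covariates, with Benjamini-Hochberg adjustment over all genes tested and a threshold of 0.05. CPM values are mean ± SD (n = 3), and SEs come from the F statistic. The fit was also run on simulated counts with known changes. Ratios were compared by exact permutation tests (scipy 1.17.1). Exonic lengths came from GENCODE M21 and promoters from RefSeq (GRCm38.p6, 6 of 8 members matched). Of the symbols, 21777 matched GENCODE directly and 1260 by a synonym. Listed genes held under older symbols (such as Emr1 and Igj) were matched through RefSeq. Alternatives were DESeq2 1.42.0, limma-voom (limma 3.58.1), RLE and upper-quartile factors, other filters, no robust option, a replicate block, length and GC offsets with and without the block, thinned counts, haemoglobin and immunoglobulin genes removed, and libraries left out. Named genes were the members, the cell-surface receptors, the smallest p-values of each list (6 for pathway lists, 3 for markers) and the 2 genes most like each member. Other genes, among them nearest neighbours, were named after their values were seen. The members, lists and alternatives were chosen with earlier results of these data known. Figures were drawn with matplotlib 3.10.9.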

Additional observations from a re-analysis of the deposited data

How the results depend on the processing

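Over the 19 alternatives, Tlr11 and Tlr12 kept their direction and their calls in each. Without TBK1-DKO 2 and WT 1 together, Tlr7 (log2 fold change 0.10, opposite in sign to the estimate from all libraries), Tlr8 (-0.19), Tlr9 (0.35), Tlr13 (0.17) and Unc93b1 (-0.28) passed the threshold, the members called were 3 higher and 5 lower, and all genes called were 3500 higher and 3397 lower. The lists then gave 19 calls for trafficking and ligand handling, 14 for signalling and 5 for cell-surface receptors. With length and GC offsets, Tlr7 was 0.0123, Tlr9 was 0.16, and Tlr8 (-0.31) and Unc93b1 (-0.25) were called. Then 5 members and 2658 of all genes (18.5%) were called lower. The trafficking and signalling lists gave 19 and 10 calls, beside 35% of all genes called. With these offsets and the replicate block together, Tlr7 was 0.013, Tlr9 was 0.15, and Tlr8 (-0.31) and Unc93b1 (-0.25) were called. Then 5 members and 2782 genes were lower, and the lists gave 19 and 9 calls, beside 36.7% of all genes called. With the replicate block alone, Tlr8 (-0.33) and Tlr9 (0.24) were called, and 1 member was higher, beside 16.1% of all genes. Deviations of libraries with the same replicate number correlated at 0.167, 0.136 and -0.055, so the numbers were not taken as pairing the libraries. Tlr8 also passed with RLE factors (-0.33), upper-quartile factors (-0.35), DESeq2 (-0.33), no filter (-0.34) and thinned counts (-0.38). Thinning left 1 cell-surface receptor called. The causes of these changes were not tested.

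Leaving out each library in turn gave log2 fold changes of -0.35 to -0.23 for Tlr3, -0.0845 to 0.0747 for Tlr7, -0.42 to -0.23 for Tlr8, 0.19 to 0.35 for Tlr9, -0.0174 to 0.12 for Tlr13 and -0.23 to -0.14 for Unc93b1. Members called numbered 0 to 1 higher and 2 to 5 lower, with 1336 to 2270 higher and 972 to 2082 lower over all genes. The trafficking list gave 5 to 13 calls, the signalling list 2 to 6 and the cell-surface list 0 to 3. Tlr3 per type 1 conventional dendritic cell markers turned to 0.0496 against their geometric mean, and Tlr8 per monocyte markers ranged from -0.19 to 0.0239. Estimates of Tbk1 (-0.0996 to 1.61e-04 with a library left out, 0.016 without TBK1-DKO 2 and WT 1) and of Tlr1 (-0.00284 with upper-quartile factors, -0.00746 with thinned counts, -0.0271 to 0.071 with a library left out), both near 0, also changed sign, as did those of Batf3 (-0.0447) and Wdfy4 (0.0409) without TBK1-DKO 2 and WT 1, and with a library left out those of Wdfy4 (-0.0925 to 0.055) and Cnpy3 (-0.1001 to 0.0272). Counting error limited no member, since each had at least 835 reads per library, whereas 3 libraries per group limited the ratios.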
